A study of Mus musculus with 8 samples.

Results

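Leukocytes from B16-OVA tumors that had received untransduced OT1 cells were compared with leukocytes from tumors that had received no cells, both labelled day 5. Cells of the 2 libraries were taken by the suffix of their barcode, and kept with 500 to 6000 detected genes, 2000 to 40000 unique molecular identifiers (UMIs) and less than 10% of UMIs in mitochondrial genes. This left 2298 cells, 2018 after ACT and 280 from non-treated tumors, of the 13046 cells that passed in the 8 libraries of the experiment. B16-OVA is a C57BL/6 melanoma line that expresses chicken ovalbumin, and was injected under the skin of C57BL/6 mice aged 7 weeks. OT1 cells are CD8+ T cells of CD45.1+ congenic mice whose transgenic receptor recognizes an ovalbumin peptide on the class I molecule H-2Kb, and here they carried no added gene. They were expanded in vitro and infused 12 and 15 days after tumor injection, with no lymphodepletion. Tumors of 5 mice were pooled per condition, CD45+ cells were sorted with enrichment for CD8+ TILs, and 1 library was made per condition and day by the 10x Genomics 5′ assay. The non-treated library is named only in the labels, which give no infusion for it. What its day 5 was counted from is not stated, so the age of its tumors is not known and may differ from that of ACT.

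The comparison asks what the tumor leukocytes looked like 5 days after transfer of unmodified T cells. Since each condition is 1 library, no difference has a replicate check, and no test or P value is given. Intervals of shares and counts are exact 95% intervals (Clopper-Pearson for shares, Poisson for counts). Those of log2 ratios and of differences in share combine the bounds of both libraries and are not exact. All cover counting error only. Infused and host CD8+ T cells were not told apart here, since T cell receptor segments were not examined and gene counts do not separate the CD45.1 allele. The run and the treatment cannot be told apart. Run here means a code held for each library in the deposited aggregation table, whose meaning is not stated. The ACT library had a run of its own and the non-treated library shared its run with 1 other library.

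The deposited counts held 2500 barcodes and 15572622 UMIs for ACT and 400 barcodes and 1805961 UMIs for non-treated tumors. The passing share was 80.7% and 70.0%, and passing cells had a median of 5394.5 and 4640.5 UMIs. Of the passing barcodes, 37 of ACT and 8 of non-treated tumors were also found in another library, and 1 was found in both. Markers kept apart from the gates separated T cells and myeloid cells but not all gates. The 10 further CD8 T cell markers, which are T cell genes in general, summed to 2318 and 3070 CPM (UMIs of a gene per 1000000 UMIs of the gate) in the CD8 T gate against 44.3 and 35 CPM in the myeloid gate, after ACT and in non-treated tumors respectively. They were at 3098 and 2651 CPM in the Foxp3+ CD4 T gate. In the NK gate they were at 967 and 1104 CPM, and 88.3% and 93.0% of its cells had at least 2 such UMIs. The 9 further myeloid markers summed to 7887 and 6014 CPM in the myeloid gate against 368 and 300.1 CPM in the CD8 T gate. The 10 further NK markers, among them Tyrobp and Fcer1g of myeloid cells too, summed to 17814 and 15295 CPM in the NK gate and to 6956 and 4968 CPM in the myeloid gate. Among T cells with no Cd4 or Cd8 UMI they summed to 6103 and 4137 CPM. The line between the NK gate and T cells was thus less sharp. Melanoma genes summed to at most 38 CPM in the CD8 T, NK and myeloid gates.

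Interferon gamma, made chiefly by activated T and NK cells, signals through JAK kinases to transcription factors that bind GAS elements and induce IRF1. Type I interferons signal to a complex with IRF9 that binds ISRE elements. In macrophages and monocytes these pathways induce guanylate-binding proteins (GBPs), immunity-related GTPases, the T cell attractants CXCL9 and CXCL10, the checkpoint ligand PD-L1 and the machinery that loads peptides onto MHC class I. Genes of these pathways were among those past 2-fold higher after ACT in myeloid cells. The promoters of 3 of them are shown because the text turns on these genes. They are the 250 bases before the RefSeq start site on GRCm38.p6, 5′ to 3′ on the gene's own strand. Capitals mark a GAS motif (TTCNNNGAA) or an ISRE core (GAAANNGAAA), searched on both strands. The Irf1 window, for the first of its 2 listed starts, is chr11:53769764-53770013 on the plus strand and holds a GAS motif, while the window of the other start holds neither string of letters. The Gbp2 window is chr3:142620413-142620662 on the plus strand and holds an ISRE core on the opposite strand. The Cxcl9 window is chr5:92328080-92328329 on the minus strand and holds neither, as does the window of Ifi47, which is not printed.
Irf1: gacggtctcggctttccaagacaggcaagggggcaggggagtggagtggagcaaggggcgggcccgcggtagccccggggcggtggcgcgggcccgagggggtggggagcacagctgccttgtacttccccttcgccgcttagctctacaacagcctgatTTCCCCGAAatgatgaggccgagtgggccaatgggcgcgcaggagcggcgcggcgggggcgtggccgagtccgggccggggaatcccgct
Gbp2: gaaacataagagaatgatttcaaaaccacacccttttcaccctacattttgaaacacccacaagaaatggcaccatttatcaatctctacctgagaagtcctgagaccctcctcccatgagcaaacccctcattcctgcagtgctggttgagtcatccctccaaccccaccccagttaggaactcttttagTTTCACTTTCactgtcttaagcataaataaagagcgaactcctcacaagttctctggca
Cxcl9: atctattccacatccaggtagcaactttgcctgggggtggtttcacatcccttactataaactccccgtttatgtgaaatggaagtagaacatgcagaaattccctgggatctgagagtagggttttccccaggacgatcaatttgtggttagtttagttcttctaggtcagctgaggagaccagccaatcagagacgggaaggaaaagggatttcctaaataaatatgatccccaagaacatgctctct

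Across the interferon gamma list of 24 genes, RefSeq gave a promoter for 17. A GAS motif stood in 8 of these (47.1%) and an ISRE core in 11 (64.7%). Over the promoters of 27025 genes the shares were 8.13% and 3.46%. Of 20 matched promoters of the type I interferon list, 4 held a GAS motif (20%) and 12 an ISRE core (60%). No promoter of 9 matched heat shock genes held either. Both motifs can share letters where a GAS motif runs into an ISRE core. A match is a string of letters and not a measured binding site.

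The myeloid share was higher after ACT, by a difference at the edge of counting error, and the CD8 T and NK shares were lower by less than it. T cells were gated by Cd3 genes, CD8 T cells also by Cd8a or Cd8b1 without Cd4, NK cells by Ncr1 or Klrb1c without Cd3 or Cd8 UMIs, and myeloid cells by at least 4 of 10 genes such as Lyz2 and Csf1r. The CD8 T gate held 24.6% of cells after ACT (22.7% to 26.5%) and 27.1% in non-treated tumors (22.0% to 32.7%). The NK gate held 22.4% (20.6% to 24.3%) and 25.4% (20.4% to 30.9%). The myeloid gate held 18.2% (16.5% to 19.9%) and 13.6% (9.79% to 18.2%). Outside the CD8 T gate, whose size the sort sets in part, myeloid cells were 24.1% and 18.6%. The interval of the difference in myeloid share ran from -0.254 to 8.79 percentage points, and those of all other gates also spanned 0. The myeloid interval lay above 0 under 4 of 6 other settings, at 17.0% and 9.68% with the filter of a later experiment (difference 2.85 to 11.0), 17.8% and 11.3% without the highest doublet scores, 17.0% and 11.8% after thinning and 18.1% and 12.7% with a ribosomal limit. With the later filter the CD8 T shares were 17.6% and 24.7%, a difference of -12.9 to -1.86 percentage points. That filter has lower caps on UMIs and genes per cell and on the mitochondrial share. It kept 1696 cells after ACT and 279 in non-treated tumors, against 2018 and 280 in the main setting. The CD8 T gate had a median of 7431.5 UMIs after ACT and 5168.5 in non-treated tumors. How far the caps alone moved these shares was not tested.

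CD4 T cells were 8.72% and 8.21%, and the share of them with a UMI of Foxp3, the regulatory T cell factor, was 43.2% and 43.5%. These were 76 of 176 cells after ACT and 10 of 23 in non-treated tumors, so the interval of that difference, -23.5 to 21.4 percentage points, allows a large change either way. Expression in Foxp3+ and Foxp3- CD4 T cells, 10 and 13 cells in non-treated tumors, was not compared. Cells with at least 2 B cell genes were 3.22% (2.49% to 4.09%) and 2.14% (0.790% to 4.61%), and ran from 0.246% to 1.97% in the other 6 libraries.

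**Figure D1:**
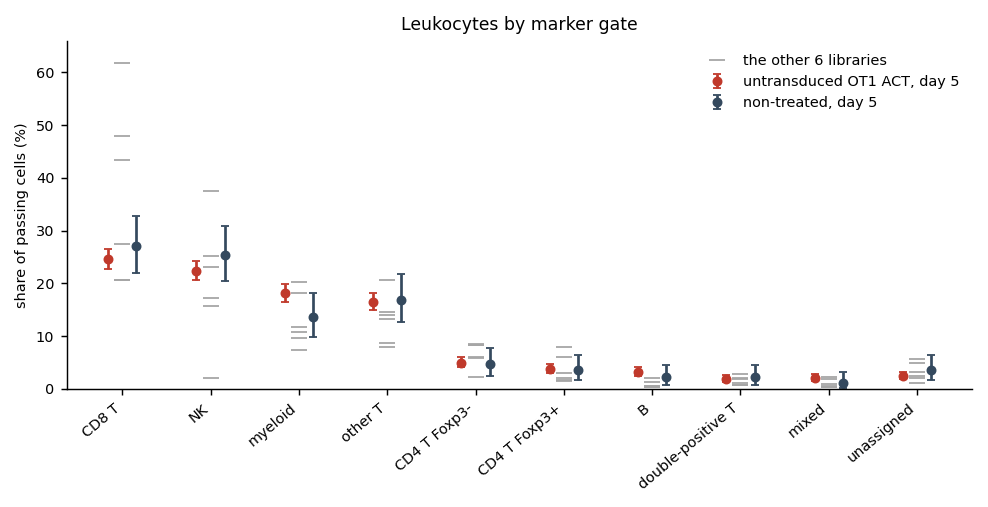
Share of passing cells (%) in each marker gate after untransduced OT1 ACT (red) and in non-treated tumors (dark blue), both labelled day 5, with exact 95% intervals, and in each of the other 6 libraries (grey dashes). The intervals of both libraries overlap in each gate, with CD8 T cells at 24.6% and 27.1% and myeloid cells at 18.2% and 13.6%.

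In myeloid cells the interferon gamma genes were higher after ACT. The gate held 367 cells and 3070777 UMIs after ACT and 38 cells and 342395 UMIs in non-treated tumors, with median depths of 8205 and 7873 UMIs per cell. CPM were summed over the cells of a gate, and log2 ratios of ACT over non-treated were taken after adding 10 CPM. Among 2600 genes with a mean of at least 50 CPM over both libraries, 98 were past 2-fold higher (3.77%) and 73 past 2-fold lower (2.81%), with a median log2 ratio of -0.02. All 24 interferon gamma genes had higher CPM after ACT. Of the 17 that passed the expression filter, 17 were past 2-fold higher, with a median log2 ratio of 1.99. Because a gene could pass through ACT alone, the 8 members with at least 50 CPM in non-treated tumors were also counted. All 8 were past 2-fold higher, with a median of 2.01, against 57 of 2558 genes and a median of -0.08 for all genes so chosen. The 24 genes summed to 10283 CPM after ACT (10170 to 10397) and 2176 CPM in non-treated tumors (2022 to 2338).

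The signalling genes were higher after ACT. Irf1, an activator induced early by interferon gamma, was at 1175 CPM after ACT (1137 to 1214) and 134 CPM in non-treated tumors (98.4 to 179), a log2 ratio of 3.04 (2.64 to 3.45). Socs1, the feedback inhibitor of JAK kinases, had a log2 ratio of 1.68. In the other 6 libraries Irf1 ran from 189 to 730 CPM, so of the 8 the non-treated library was the lowest and ACT at day 5 the highest.

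The chemokines followed the same direction but rested on few non-treated cells. Cxcl9, which draws CXCR3+ T cells, was at 1043 CPM after ACT (1007 to 1079) and 73.0 CPM in non-treated tumors (47.3 to 108), a log2 ratio of 3.66 (3.16 to 4.20). It was found in 142 of 367 myeloid cells (38.7%) and in 2 of 38 (5.26%), and in 30.0% and 5.26% after thinning each cell to 2000 UMIs. In the CD8 T gate, which should lack it, 2.42% and 0% of cells had a Cxcl9 UMI at median depths of 7431.5 and 5168.5 UMIs. A single cell held 80.0% of the non-treated Cxcl9 UMIs. Cxcl10, a ligand of the same receptor, was at 3247 and 791 CPM, a log2 ratio of 2.02, with 33.2% of the non-treated UMIs in 1 cell.

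The effector genes were higher as well. Gbp2, a guanylate-binding protein that coats pathogen vacuoles, was at 1222 CPM after ACT (1183 to 1262) and 172 CPM in non-treated tumors (131 to 222), a log2 ratio of 2.76 (2.40 to 3.13). Ifi47, an immunity-related GTPase, was at 352 and 40.9 CPM, a log2 ratio of 2.83, and Irgm1, a regulator of these GTPases, at 228 and 40.9 CPM. Gbp5 was at 250.4 and 55.5 CPM. Ifi47 and Irgm1 were under 50 CPM in non-treated tumors, so they passed the filter through ACT alone. The GTPases Tgtp2 and Iigp1 had 219 and 170 UMIs after ACT and none in non-treated tumors. With a limit of 3 counts over the non-treated gate they were at least 8.14-fold and 6.32-fold higher. Cd274, which encodes PD-L1, was at 398 and 108 CPM, a log2 ratio of 1.79 (1.35 to 2.25). Ido1, a tryptophan-degrading enzyme often induced by interferon gamma, was barely found, with 1 UMI after ACT and 0 in non-treated tumors.

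**Figure D2:**
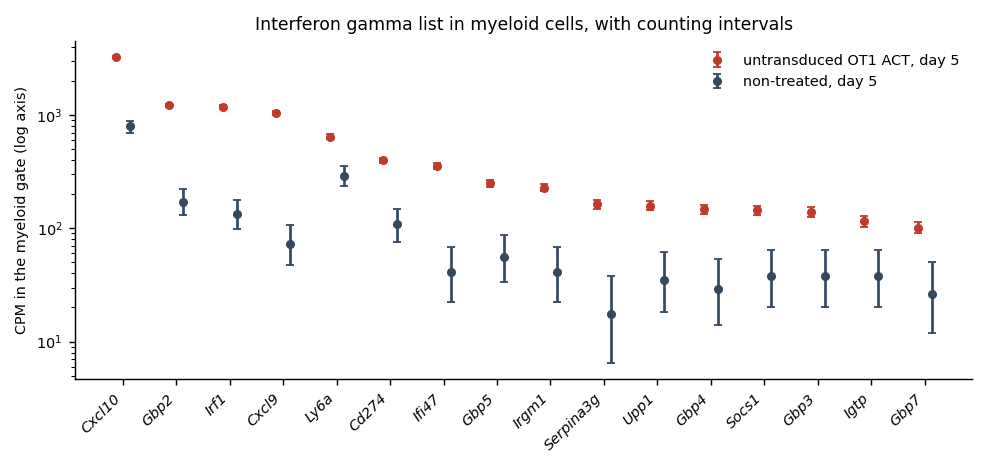
CPM on a log axis in the myeloid gate for 16 interferon gamma genes that passed the expression filter, after untransduced OT1 ACT (red) and in non-treated tumors (dark blue), with exact 95% Poisson intervals of the counts. All 16 red points lie above their dark blue partners, with Cxcl10 at 3247 and 791 CPM and Irf1 at 1175 and 134 CPM.

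The difference was spread over the cells. Among 2000 UMIs drawn from each cell, myeloid cells had a median of 13 UMIs of the interferon gamma list after ACT (quartiles 5 and 29, range 0 to 117). In non-treated tumors the median was 1.5 (quartiles 0 and 4, range 0 to 37). At least 5 such UMIs were found in 286 of 367 cells after ACT (77.9%, 73.3% to 82.1%) and in 8 of 38 non-treated cells (21.1%, 9.55% to 37.3%). The distributions overlapped, since the highest non-treated cell stood above the upper quartile of ACT. In the other 6 libraries the cell medians ran from 3 after untransduced ACT at day 12 to 19.5 in the PD1d/IL-2v/IL-33 library of day 5, for which OT1 cells carried a PD-1 decoy, an IL-2 variant and IL-33. Of the 8 interferon gamma genes with at least 50 CPM in non-treated tumors, 6 had their lowest CPM of the 8 libraries there.

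**Figure D3:**
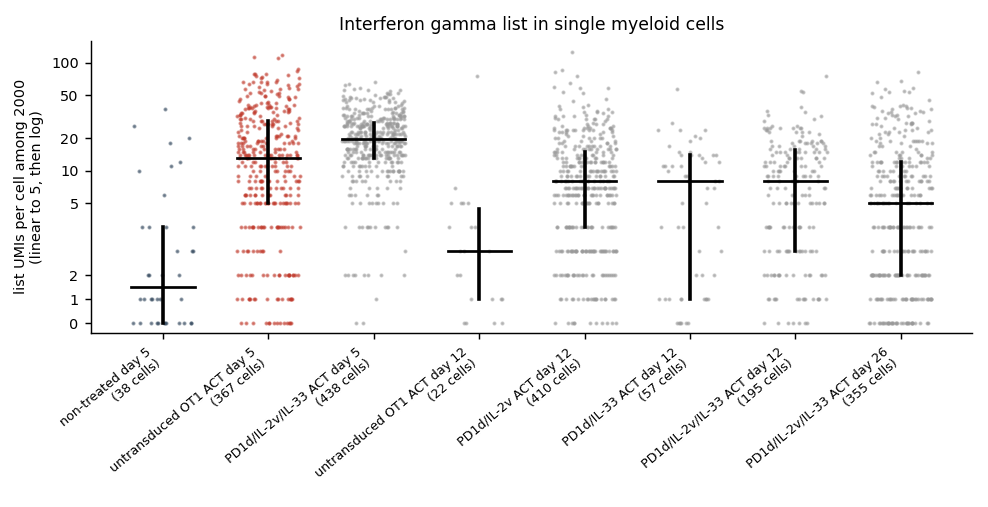
UMIs of the 24-gene interferon gamma list per myeloid cell among 2000 UMIs (axis linear to 5, then log), for each of the 8 libraries, with a point per cell, a thin bar at the median and a thick bar over the quartiles. Non-treated cells have a median of 1.5 and untransduced ACT cells at day 5 a median of 13.

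More myeloid cells held a Ly6c2 UMI after ACT, and the gate was split by marker genes as far as counts allow. Cells with a UMI of Ly6c2, a monocyte gene, were 51.0% after ACT (45.7% to 56.2%) and 26.3% in non-treated tumors (13.4% to 43.1%). The interferon gamma list had a cell median of 19 and 7 UMIs in Ly6c2+ cells (187 and 10 cells), and of 7 and 1 in Ly6c2- cells (180 and 28 cells). In Ly6c2+ cells 10 of 17 genes were past 2-fold higher, with a median log2 ratio of 1.79. In Ly6c2- cells 16 of 17 were, with a median of 2.13. In cells with no C1q UMI (328 and 30 cells) the median log2 ratio was 2.11. In cells with C1q UMIs (39 and 8 cells), the complement genes of tissue macrophages, it was 1.18, with 10 of 17 genes past 2-fold. The share of cell types in the overall ratios was not tested further.

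Type I interferon genes were higher too, by less. Of the 26 genes, 25 had higher CPM after ACT, 21 passed the filter and 11 were past 2-fold higher, against 98 of all 2600 genes. The median log2 ratio of the 21 was 1.01. With at least 50 CPM in non-treated tumors there were 16, of which 6 were past 2-fold, against 57 of 2558 genes. The median of these 16 was 0.68. Isg15, a ubiquitin-like modifier, was at 1229 CPM after ACT and 348 CPM in non-treated tumors, a log2 ratio of 1.79 (1.54 to 2.06). Irf7, which amplifies type I interferon, was at 472 and 178 CPM, a log2 ratio of 1.36. Zbp1, a nucleic acid sensor, was at 366 and 108 CPM, a log2 ratio of 1.67 (1.24 to 2.14). In cells with C1q UMIs the type I median was -0.39, with 0 of 21 genes past 2-fold, and in Ly6c2+ cells it was 0.41, with 4 of 21. The overall median was 0.40 without the cells of highest doublet score. It was -0.07 without cells of at least 3 cell cycle UMIs, which left 13 non-treated cells.

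The interferon beta gene Ifnb1 had 317 UMIs after ACT, in 30 of 367 myeloid cells (8.17%), of which 1 cell held 17.0%. This was 103 CPM (92.2 to 115). Non-treated tumors had 1 UMI, or 2.92 CPM (0.0739 to 16.3), so the log2 ratio of 3.13 has a wide counting interval (2.10 to 3.52). The added 10 CPM hold its upper bound down, and over the other settings the ratio ran from 3.04 to 4.73. Ifnb1 passed the expression filter through ACT alone. In the CD8 T gate it had 0 UMIs in both libraries. In the other 6 libraries it ran from 0 to 80.9 CPM in myeloid cells, and the highest was the PD1d/IL-2v/IL-33 library of day 5. That library and the ACT library each had a run of its own.

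MHC class I genes had higher CPM after ACT, mostly within 2-fold. All 16 MHC class I genes had higher CPM in myeloid cells after ACT, and 15 passed the filter with a median log2 ratio of 0.74. Only H2-Q4 was past 2-fold, at 201 and 84.7 CPM, against 98 of all 2600 genes past 2-fold higher. B2m, the light chain of class I, was at 3251 and 1811 CPM, and the peptide transporter Tap1 at 325 and 172 CPM. Of the 8 MHC class II genes, 1 had higher CPM after ACT and none was past 2-fold, with a median of -0.22 over the 7 that passed. The invariant chain gene Cd74 was at 12943 and 16125 CPM and H2-Aa at 4056 and 4740 CPM. The class II median was 0.11 after thinning and 0.21 in myeloid cells with neither C1q nor dendritic genes. Without cells of at least 3 cell cycle UMIs it was 0.98, and the class I median was 0.68. The sign of the class II median thus depended on the cells taken.

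**Figure D4:**
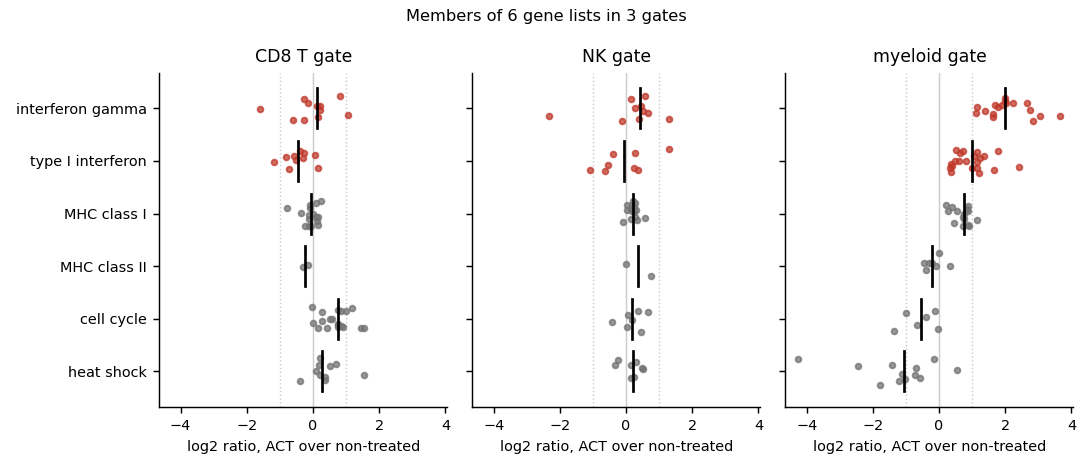
Log2 ratio of CPM, ACT over non-treated after adding 10 CPM, for the members of 6 gene lists that passed the filter in the CD8 T, NK and myeloid gates, with a point per gene, a bar at the list median and dotted lines at 2-fold. The interferon gamma list has a median of 0.11 in CD8 T cells, 0.41 in NK cells and 1.99 in myeloid cells.

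Monocyte genes were among those higher after ACT, with 6 of 13 past 2-fold higher and 1 lower, against 98 and 73 of all 2600 genes. Their median log2 ratio was 0.33. With at least 50 CPM in non-treated tumors, 5 of 12 were past 2-fold higher, with a median of 0.27, against 57 of 2558 genes. Ly6c2, a surface marker of inflammatory monocytes, was at 1267 CPM after ACT and 266 CPM in non-treated tumors, a log2 ratio of 2.21 (1.92 to 2.52). Plac8 was at 3152 and 1180 CPM, and Ly6i, of the same family as Ly6c2, at 483 and 43.8 CPM, so that Ly6i passed the filter through ACT alone. Chil3, a chitinase-like protein of monocytes, was at 841 and 266 CPM. Ccr2, the receptor that brings monocytes from the blood, was at 350.4 and 300.8 CPM, a log2 ratio of 0.21 (-0.07 to 0.51). Thbs1, which encodes thrombospondin 1, was lower after ACT, at 318 and 1297 CPM, with 35.4% of the non-treated UMIs in 1 cell.

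Genes of macrophage activation differed in both directions. Irg1, the itaconate-producing enzyme of activated macrophages, was at 476 CPM after ACT and 23.4 CPM in non-treated tumors, a log2 ratio of 3.87 (3.11 to 4.60). Fam26f was at 485 and 29.2 CPM, a log2 ratio of 3.66 (2.95 to 4.37). Of 14 inflammatory cytokine genes that passed, 2 were past 2-fold higher and 3 lower, against 98 and 73 of all 2600 genes. Il1rn, the interleukin 1 receptor antagonist, was at 1198 and 304 CPM, and Il6 at 84.0 and 20.4 CPM. Irg1, Fam26f and Il6 were under 50 CPM in non-treated tumors, so they passed the filter through ACT alone. Il1b was at 7447 and 4118 CPM, within 2-fold. The monocyte attractants Ccl2 and Ccl7 were lower, at 530 and 1612 CPM and at 51.1 and 689 CPM, but 1 cell held 54.0% and 52.5% of their non-treated UMIs. Dab2, an endocytic adaptor of macrophages, was lower at 30.3 and 158 CPM, a log2 ratio of -2.06 (-2.49 to -1.61). No cell held above 18.5% of its UMIs in non-treated tumors, and Dab2 passed the filter through non-treated tumors alone. C1q macrophage genes had a median of -0.20, with 0 of 10 past 2-fold higher and 1 lower.

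The heat shock list shows how far 1 cell can carry a gate of 38. All 12 genes passed and 7 were past 2-fold lower after ACT, against 73 of all 2600 genes. The list's median log2 ratio was -1.07. A single non-treated cell held 25.5% of the list's UMIs. Without it 2 genes were past 2-fold lower and the median was -0.47, while the interferon gamma list kept 17 of 17 genes past 2-fold and a median of 1.96. The cell medians of the heat shock list were 10 UMIs after ACT and 9.5 in non-treated tumors. Neutrophil genes summed to 212 CPM in the myeloid gate after ACT and 43.8 CPM in non-treated tumors. The neutrophil genes S100a8 and S100a9 had 173 of 242 UMIs and 168 of 179 UMIs of ACT in 1 cell, but Csf3r, a receptor of neutrophils and monocytes, was spread over 145 of 367 cells (39.5%) against 7 of 38 (18.4%). Cxcr2 had 0 UMIs after ACT and 2 in non-treated tumors. What these cells add to the ratios of other genes was not tested.

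In CD8 T cells Ccl5, Gzmk, Eomes and Maf were past 2-fold lower after ACT, while most lists of T cell genes had median log2 ratios near 0. The gate held 496 cells and 4682804 UMIs after ACT and 76 cells and 436527 UMIs in non-treated tumors. Of 2712 genes, 22 were past 2-fold higher after ACT (0.811%) and 23 lower (0.848%). With at least 50 CPM in non-treated tumors, 6 of 2745 genes were past 2-fold higher. With at least 50 CPM after ACT, 16 of 2679 genes were past 2-fold lower. Ccl5, a chemokine of effector and memory T cells, was at 2649 CPM after ACT (2603 to 2696) and 7143 CPM in non-treated tumors (6894 to 7398), a log2 ratio of -1.43 (-1.48 to -1.37). Gzmk, which encodes granzyme K, was at 93.5 and 307 CPM, a log2 ratio of -1.61 (-1.88 to -1.34). Eomes, a T-box factor of effector and memory cells, was at 24.3 and 115 CPM, a log2 ratio of -1.86 (-2.28 to -1.42). Maf, a transcription factor linked to dysfunction of T cells in tumors, was at 15.4 and 84.8 CPM. Eomes and Maf were under 50 CPM after ACT, so they passed the expression filter through non-treated tumors alone. Of 7 effector transcription factors that passed, 1, Eomes, was past 2-fold lower, with a median of -0.27. With at least 50 CPM after ACT, 0 of 6 were past 2-fold lower, with a median of -0.24. Of 10 cytotoxic granule genes 1 was past 2-fold higher, the granzyme B inhibitor Serpinb9, and 1 lower, Gzmk, with a median of 0.11. Of 7 lymphocyte cytokine and chemokine genes that passed, 3 were past 2-fold lower and 0 higher, with a median of -0.14. That list summed to 6082 CPM after ACT and 11145 CPM in non-treated tumors, a log2 ratio of -0.87 (-0.92 to -0.83). Ccl5 alone made up 2649 and 7143 CPM of these sums, so the fall of the sum rests largely on 1 gene. Ifng, another member, had most of its non-treated UMIs in 1 cell. No cell held over 20% of the non-treated UMIs of Ccl5, Gzmk, Eomes or Maf. Ccl5 had a log2 ratio of -0.72 with the filter of a later experiment and -0.93 after thinning, and Maf -0.96 after thinning, so these calls were lost there. Among the 8 libraries, ACT at day 5 had the lowest CPM of Ccl5 and Gzmk.

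Genes of cell division had higher CPM in CD8 T cells after ACT, with smaller ratios after thinning to equal depth. Of 19 cell cycle genes that passed, 4 were past 2-fold higher and none lower, against 22 and 23 of all 2712 genes. The median log2 ratio of the list was 0.75. Of the 14 cell cycle genes with at least 50 CPM in non-treated tumors, 1 was past 2-fold higher, against 6 of 2745 genes. The median of these 14 was 0.55. Cenpa, the centromeric histone, was at 265 CPM after ACT and 91.6 CPM in non-treated tumors, a log2 ratio of 1.43 (1.02 to 1.87). Ube2c, a ubiquitin carrier of mitosis, was at 159 and 48.1 CPM, with 38.1% of the non-treated UMIs in 1 cell. Dut and Tipin, which serve DNA replication, were at 335 and 126 CPM and at 97.2 and 27.5 CPM. Ube2c and Tipin were under 50 CPM in non-treated tumors, so they passed the filter through ACT alone. The cells with at least 3 cell cycle UMIs were 66.5% and 60.5%, and after thinning the list's median was 0.11. In the NK gate 74.6% and 81.7% of cells had as many, so this limit need not mark division. CD8 T cells were deeper after ACT, at a median of 7431.5 UMIs against 5168.5. Whether infused cells carried the difference was not tested.

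Single genes of activation and survival were past 2-fold higher in CD8 T cells. Tnfrsf4, which encodes the costimulatory receptor OX40, was at 278 CPM after ACT and 128 CPM in non-treated tumors, a log2 ratio of 1.06 (0.70 to 1.44), and was past 2-fold under 7 of 12 other settings, with 0.38 at the lowest. Of the 9 costimulatory receptors that passed, it was the 1 past 2-fold, and their median was -0.20. Past 2-fold higher were 22 of all 2712 genes. Serpinb9, the granzyme B inhibitor, was at 200 and 87.1 CPM, a log2 ratio of 1.11 (0.69 to 1.56). Ly6a was at 694 and 330 CPM. Il7r, the interleukin 7 receptor of memory cells, was at 218 and 105 CPM, a log2 ratio of 0.98 (0.59 to 1.39), and was found in 55.6% and 19.7% of cells, or 34.9% and 11.8% after thinning. In the naive and memory list as a whole 0 of 11 genes were past 2-fold, with a median of 0.18. Gzmf, a granzyme of strongly stimulated T cells, had 404 UMIs after ACT and 0 in non-treated tumors, at least 12.6-fold higher, but these lay in 1.61% of cells and 48.0% of them in 1 cell. Gzmc had 411 UMIs (87.8 CPM, 79.5 to 96.7) and 3 UMIs (6.87 CPM, 1.42 to 20.1), with 36.7% of the ACT UMIs in 1 cell. It was found in 7.66% and 3.95% of cells, or 2.62% and 0% after thinning.

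Exhaustion genes lay within 2-fold. Of 13 inhibitory receptor and exhaustion genes, 0 were past 2-fold in either direction, with a median log2 ratio of 0.00. Among all 2712 genes, 22 were past 2-fold higher and 23 lower. Pdcd1, which encodes PD-1, was at 818 CPM after ACT (792 to 844) and 692 CPM in non-treated tumors (616 to 774), Lag3 at 368 and 323 CPM and Tox at 127 and 208 CPM. Gzmb was at 521 and 561 CPM, a log2 ratio of -0.11 (-0.29 to 0.09). Ifng, the interferon gamma gene itself, was at 180 and 447 CPM in CD8 T cells, with 71.8% of the non-treated UMIs in 1 cell, and was found in 31.7% and 32.9% of cells, or 12.9% and 17.1% after thinning. The interferon gamma list had a median of 0.11 here, with 1 of 11 genes higher and 1 lower, and the type I list a median of -0.44.

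**Figure D5:**
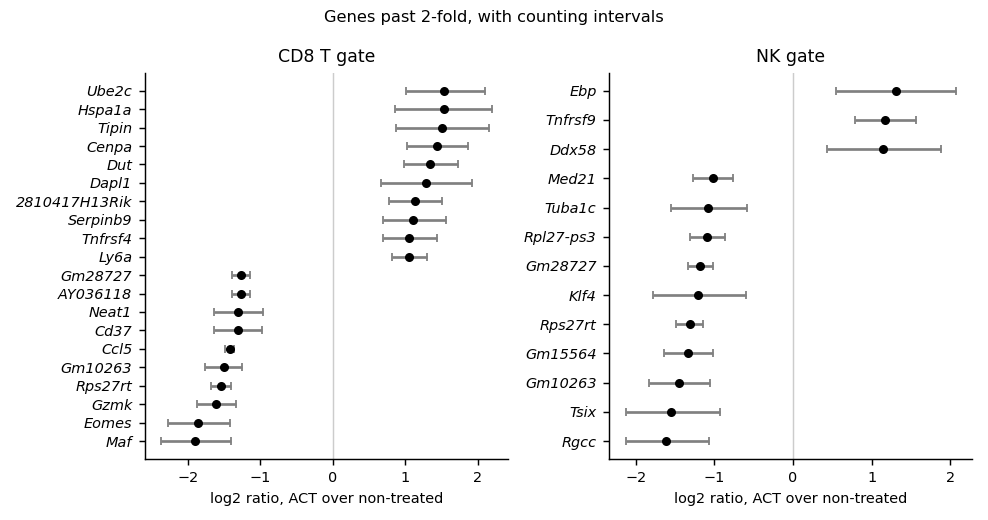
Log2 ratio of CPM, ACT over non-treated after adding 10 CPM, for named genes past 2-fold in the CD8 T gate (left) and the NK gate (right), with counting intervals. In CD8 T cells Eomes lies at -1.86 and Cenpa at 1.43, and in NK cells Tnfrsf9 lies at 1.17 and Rgcc at -1.61.

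In NK cells few genes were past 2-fold, and cytotoxic genes were not among them. The gate held 452 cells and 2305202 UMIs after ACT and 71 cells and 312530 UMIs in non-treated tumors. Of 2894 genes, 4 were past 2-fold higher (0.138%) and 20 lower (0.691%). With at least 50 CPM in non-treated tumors, 2 of 2946 genes were past 2-fold higher. With at least 50 CPM after ACT, 11 of 2886 genes were past 2-fold lower. Tnfrsf9, which encodes the costimulatory receptor 4-1BB, was at 407 CPM after ACT (382 to 434) and 176 CPM in non-treated tumors (133 to 229), a log2 ratio of 1.17 (0.79 to 1.56). Ddx58, the RNA sensor RIG-I, was at 90.2 and 35.2 CPM, and Ebp, an enzyme of sterol synthesis, at 85.9 and 28.8 CPM. Both were under 50 CPM in non-treated tumors, so they passed the filter through ACT alone. Rgcc, a regulator of the cell cycle, was lower at 29.9 and 112 CPM, a log2 ratio of -1.61 (-2.13 to -1.07). Klf4, a factor of quiescence, was also lower, at 29.1 and 80.0 CPM. Rgcc and Klf4 were under 50 CPM after ACT, so they passed the filter through non-treated tumors alone. The cytotoxic granule list had 0 of 10 genes past 2-fold and a median of 0.21, with Gzma at 9187 and 7046 CPM and Prf1 at 829 and 826 CPM. Ifng was at 172 and 83.2 CPM, a log2 ratio of 0.97 (0.45 to 1.52), and was found in 36.3% and 19.7% of NK cells, or 21.2% and 9.86% after thinning. The NK receptor list of lectins had 0 of 11 past 2-fold and a median of 0.02.

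A few features were lower after ACT in all 3 gates, namely Gm10263, Gm28727 and Rps27rt, and 0 were higher in all 3. Rps27rt is a copy of a ribosomal protein gene, and the other 2 are gene models named by number, so reads shared with near-identical genes could be split between them. Features with such names were also among the other named lower genes. These were Rps12-ps3, Gm5786, Rpl27-ps3, Gm26619, Rps26-ps1 and Gm10073 in myeloid cells, and Gm15564 and Rpl27-ps3 in NK cells. The counts of lower genes therefore include such features. Over all cells Rps27rt was at 383 CPM after ACT and 950.0 CPM in non-treated tumors. The PD1d/IL-2v/IL-33 library of day 5, which also had a run of its own, had 396 CPM and the remaining 5 libraries had 466 to 1425 CPM. For these features the run and the treatment cannot be told apart.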

How the data were processed

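Single-cell RNA-seq of sorted CD45+ cells was analysed for 2 of 8 libraries. The authors counted UMIs per gene and barcode with Cell Ranger (2.2.0 in the submitters' processing notes, with bcl2fastq), aggregated the 8 libraries and deposited raw counts of 27998 genes. The genome build was not given in the sources used here. The deposited aggregation table named each library and held a code for each, taken here as its run. Cells were kept by the filter in the report, whose further ribosomal limit of 5% to 60% was an alternative. Each cell was put in 1 of 10 marker gates. Myeloid cells had under 2 Cd3 UMIs, and cells with genes of several types were called mixed and left out. Doublets were not removed otherwise. UMIs were summed per gate and scaled to CPM, with exact Poisson intervals. A gene was compared at a mean of 50 CPM, and 10 CPM were added before log2 ratios. A passing gene under 50 CPM in 1 library thus passed through the other alone. Marker gates with under 20 cells in a library were not compared, while subsets and settings that left fewer are given with their cell numbers. Thinning drew 2000 UMIs per cell (seed 1). Cycling cells, with at least 3 cell cycle UMIs, and the Ly6c2, C1q and dendritic subsets were set on the thinned counts. Cycling names that limit only, which 74.6% of NK cells passed after ACT and 81.7% in non-treated tumors. Whether such cells were dividing was not tested.

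Named were, per gate, the 10 genes of highest and the 10 of lowest ratio by the interval bound nearest 0, past 2-fold and with no cell over 20% of the UMIs in the higher library, without ribosomal and mitochondrial genes, and members of the gene lists. The cells, the 41 lists and the comparisons were chosen with earlier results of these data known. Genes outside this rule were picked after their values were seen. Ratios and intervals were run on simulated Poisson counts. These lack the clumping of UMIs in single cells seen here, so the intervals were not tested for it. Tools were edgeR 4.0.16 (TMM factors only) under R 4.3.3 and, under Python 3.11.15, pandas 2.3.3, scipy 1.17.1, numpy 2.4.6, scanpy 1.11.5 (Scrublet) and matplotlib 3.10.9. Total counts of 15572622 and 1805961 UMIs set the precision, and non-treated tumors the limit. Values of 1 gene are not reported here. Promoter sequences came from RefSeq, and the reference genome was not used. As alternatives, the cell filter, gates, thinning, doublets, shared barcodes, pseudocount, expression filter, scaling, cell weights and cycling cells were varied.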

Additional observations from a re-analysis of the deposited data

Results flagged for a closer look

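The ratios of ACT over non-treated tumors went past 2-fold in opposite directions in different gates for 5 genes in CD8 T against myeloid cells and for 2 in NK against myeloid cells. The difference between gates was not tested, since each gate is a part of the same 2 libraries. Cxcl10 had a log2 ratio of -1.62 in CD8 T cells and 2.02 in myeloid cells, a difference of -3.64, and a log2 ratio of -2.34 in NK cells, a difference of -4.37 from myeloid cells. Of its non-treated UMIs, 89.2% in the CD8 T gate and 100% in the NK gate lay in 1 cell. Ccl5 had -1.43 in CD8 T cells and 1.78 in myeloid cells, a difference of -3.21, with 52.0% of the non-treated myeloid UMIs in 1 cell. Itga4, an integrin of migrating leukocytes, had -1.22 and 1.07, a difference of -2.29, with no cell above 22.9% of its UMIs in non-treated tumors. Ifit3 had -1.19 and 1.25, a difference of -2.44, with 77.1% of the non-treated CD8 T UMIs in 1 cell. Hspa1a, a heat shock chaperone, had 1.53 and -2.44, a difference of 3.98, with 51.7% of the non-treated myeloid UMIs in 1 cell. Isg15 had -1.09 in NK cells and 1.79 in myeloid cells, a difference of -2.88, with 83.0% of the non-treated NK UMIs in 1 cell.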

How the results depend on the processing

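No paired analysis was possible because each condition is 1 library, and for the same reason no replicate could be left out. The interferon gamma median in myeloid cells ran from 1.63 to 2.53 over the settings. Of 54 pairs of a named gene and a gate (48 genes), 51 kept their direction under every setting and 25 stayed past 2-fold. With the filter of a later experiment the ACT shares were 17.6% (CD8 T) and 26.7% (NK), the non-treated myeloid share 9.68%, CD8 T genes higher 14, and medians 0.0647 (CD8 T cell cycle), 0.22 (CD8 T interferon gamma) and 0.35 (myeloid type I). Stricter gates gave a myeloid ACT share of 16.2%, 7 NK genes higher, and myeloid medians of 2.29 (interferon gamma) and 0.88 (MHC class I). After thinning, higher and lower genes numbered 40 and 36 (CD8 T), 29 and 46 (NK) and 174 and 237 (myeloid), with medians of 0.11 for CD8 T cell cycle and 0.11 for myeloid MHC class II, and Wdfy4 turned to 0.16. With at least 50 UMIs over both libraries they numbered 120 and 37 (CD8 T) and 257 and 122 (myeloid), with 70 NK genes higher. With a mean of 10 CPM they numbered 91 and 52 (CD8 T), 86 and 58 (NK) and 237 and 180 (myeloid). Weighting each cell equally gave 13 CD8 T genes higher and an interferon gamma median of 0.25. NK genes higher were 9 with a pseudocount of 1 CPM and 7 with TMM factors. Without the highest doublet scores the myeloid medians were 2.53 (interferon gamma), 0.40 (type I), -0.00639 (MHC class II) and -0.535 (heat shock). At least 3 cell cycle UMIs were found in 81.7% of non-treated NK cells and 65.8% of non-treated myeloid cells, which need not mark division. Leaving out cells past this limit left 13 non-treated cells in the NK gate and 13 in the myeloid gate. It gave 35 and 47 CD8 T genes, 127 and 166 NK genes and 168 lower myeloid genes. The medians were then -0.36 (CD8 T cell cycle), 0.48 (CD8 T cytokines), 0.58 (NK interferon gamma), 1.63 (myeloid interferon gamma), -0.0679 (type I), 0.98 (MHC class II) and 0.39 (heat shock), and Hspa1a and 2810417H13Rik in CD8 T cells and Wdfy4 in myeloid cells turned to -0.95, -0.16 and 0.45. The CD8 T cell cycle median is no check of that list, since cells were left out by their UMIs of the same list. The cause of the other changes was not tested. Chosen after seeing the data were 2 settings. Leaving out 1 non-treated myeloid cell gave a heat shock median of -0.53 with the expression filter applied again, and of -0.47 over the 12 genes of the main filter. Myeloid cells with neither C1q nor dendritic genes gave 2.30 (interferon gamma), 1.25 (type I) and 0.21 (MHC class II).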
